A study of Mus musculus with 6 samples.

Results

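Nkx genes encode homeodomain transcription factors of the NK family. Chromatin immunoprecipitation followed by sequencing (ChIP-seq) had been used on a pair of immortalized mouse cell lines, mK4 and mK3, in a study of histone methylation and the fate of nephron progenitors. The 9 genes Nkx2-1, Nkx2-2, Nkx2-3, Nkx2-5, Nkx2-6, Nkx2-9, Nkx3-2, Nkx6-1 and Nkx6-2 were taken by symbol from 21937 measured genes. Each had 1 row in every file. They were chosen by family name with the H3K27, H3K4 and input counts of these libraries already known, so those counts are given as a description and support nothing by themselves. Both lines are labelled as metanephric lines of stage E11.5 and strain CD1, with no treatment named, and differ in the labels by name only. How the lines were immortalized, and whether either is 1 clone, is not given in the sources used here. For mK4 and for mK3 there was 1 library with an antibody labelled H3K27, 1 with an antibody labelled H3K4 and 1 input of chromatin without pull-down.

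NK homeodomain factors set up cell identity in the ventral neural tube, the heart, the foregut and its derivatives, the pancreas and the axial skeleton, and none of the 9 is a classical regulator of the nephron. In tissues that do not use them, such factor genes are usually held silent by Polycomb complexes, which trimethylate lysine 27 of histone H3. Methylation of H3 at lysine 4 is in general found at active or poised promoters. The labels do not give the degree of methylation for either antibody, and no RNA was measured, so nothing below is a level of expression.

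The libraries were shallow. Counted reads over exons lay between 386695 and 311409 in the inputs and between 714011 and 481235 in the 4 ChIP libraries, so single Nkx genes held between 1 and 89 reads. With 1 library per group there is no replicate check and no test, and every interval is an exact Clopper-Pearson 95% interval for counting error alone. The label H3K4 stands beside catalogue number ab8898, which, as background, is the number of an antibody sold against trimethylated lysine 9 of H3. H3K4 reads were at least 2-fold over input at 1 of 27 housekeeping genes in mK4 and at 2 of 27 in mK3, against 3.69% and 4.94% of all genes. Which modification these libraries hold was not tested, and "H3K4" below is the label's word. Of 10 genes of the metanephric kidney used to check the line labels, H3K27 marked 0 in mK4 and 2 in mK3, against 9.06% and 10.3% of all genes, so the count says nothing about the labels.

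Promoters of 3 of the genes are printed because they frame the range of the data: Nkx2-3 had the lowest mK4 to mK3 ratio of H3K27, Nkx2-5 the highest, and Nkx6-1 the highest H3K27 over input in mK4. Each runs from 250 bases before to 50 bases after the annotated start, 5′ to 3′ on the gene's strand, from RefSeq on build GRCm38.p6, with every CpG in capitals. The deposited counts are on mm9 and cover exons, so the bases before the start are not in them. The windows are chr19:43612075-43612374 on the plus strand for Nkx2-3, chr17:26841516-26841815 on the minus strand for Nkx2-5 and chr5:101664662-101664961 on the minus strand for Nkx6-1.
Nkx2-3: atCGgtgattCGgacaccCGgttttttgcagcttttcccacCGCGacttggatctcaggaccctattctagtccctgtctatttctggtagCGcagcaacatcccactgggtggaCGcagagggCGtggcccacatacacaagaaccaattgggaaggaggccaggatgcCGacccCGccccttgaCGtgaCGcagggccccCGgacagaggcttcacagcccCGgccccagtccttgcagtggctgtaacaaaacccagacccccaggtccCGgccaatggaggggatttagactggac
Nkx2-5: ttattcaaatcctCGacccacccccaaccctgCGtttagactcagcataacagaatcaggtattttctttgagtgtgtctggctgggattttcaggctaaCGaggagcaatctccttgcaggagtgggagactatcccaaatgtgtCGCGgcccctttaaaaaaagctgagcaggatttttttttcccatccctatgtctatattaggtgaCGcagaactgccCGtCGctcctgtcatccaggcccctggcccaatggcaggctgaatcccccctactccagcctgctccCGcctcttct
Nkx6-1: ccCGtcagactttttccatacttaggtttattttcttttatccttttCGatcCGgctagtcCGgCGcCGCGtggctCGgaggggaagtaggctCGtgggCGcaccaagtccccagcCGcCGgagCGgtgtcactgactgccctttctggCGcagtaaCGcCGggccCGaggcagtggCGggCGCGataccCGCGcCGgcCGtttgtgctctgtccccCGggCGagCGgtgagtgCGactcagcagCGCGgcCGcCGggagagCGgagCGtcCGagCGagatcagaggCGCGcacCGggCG

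These windows hold 15 CpGs at Nkx2-3, 9 at Nkx2-5 and 40 at Nkx6-1. RefSeq promoters were matched for 8 of the 9 genes, and all 8 held more CpGs than the median promoter, with a median of 16 against 7 over 32851 promoters of the same length. Nkx3-2 with 25, Nkx6-2 with 32 and Nkx6-1 lay above the upper quartile of 20 CpGs. Nkx6-2, with 32 CpGs, had the lowest H3K27 density of the 9 in either line. Nkx6-1, with 40, had the highest H3K27 over input in mK4. Whether CpG count goes with H3K27 in the family was not tested. The core of the NK2 binding motif, TNAAGTG on either strand, was found once, in the Nkx2-2 promoter, and 3790 of the 32851 promoters hold it. A match of letters is no evidence of binding.

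In the H3K27 libraries the 9 genes together held 173 reads in mK4 and 378 in mK3, beside 69 and 56 input reads in the same order. As shares of each library this was 2.02-fold over input in mK4 (1.52 to 2.7) and 3.54-fold in mK3 (2.67 to 4.78). A gene was called marked when its scaled count plus 5 was at least 2-fold that of the input. By that rule H3K27 marked 4 of the 9 in mK4, where 9.06% of all genes passed, and 8 of the 9 in mK3, where 10.3% passed. Nkx2-1, Nkx2-6, Nkx2-9 and Nkx6-1 were marked in both lines, as were 2.85% of all genes. In mK3, Nkx2-2, Nkx2-3, Nkx2-5 and Nkx6-2 were marked as well, and Nkx3-2 was marked in neither line. The median log2 ratio over input was 0.84 in mK4 and 1.52 in mK3, and 0.00 over all genes in either line. The rule's edge fell between Nkx2-6 (1.10) and Nkx2-5 (0.84) in mK4, and between Nkx2-9 (1.15) and Nkx3-2 (0.74) in mK3. When the count that exon length alone predicts was used as background, H3K27 passed at 1 of 9 in mK4, Nkx2-5, and at 5 of 9 in mK3, Nkx2-1, Nkx2-2, Nkx2-3, Nkx2-6 and Nkx6-1, against 3.51% and 2.38% of all genes. With a pseudocount of 20 they were 2 and 3, and with both inputs pooled 3 and 5. The shares of all genes under these last settings were not computed.

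**Figure D1:**
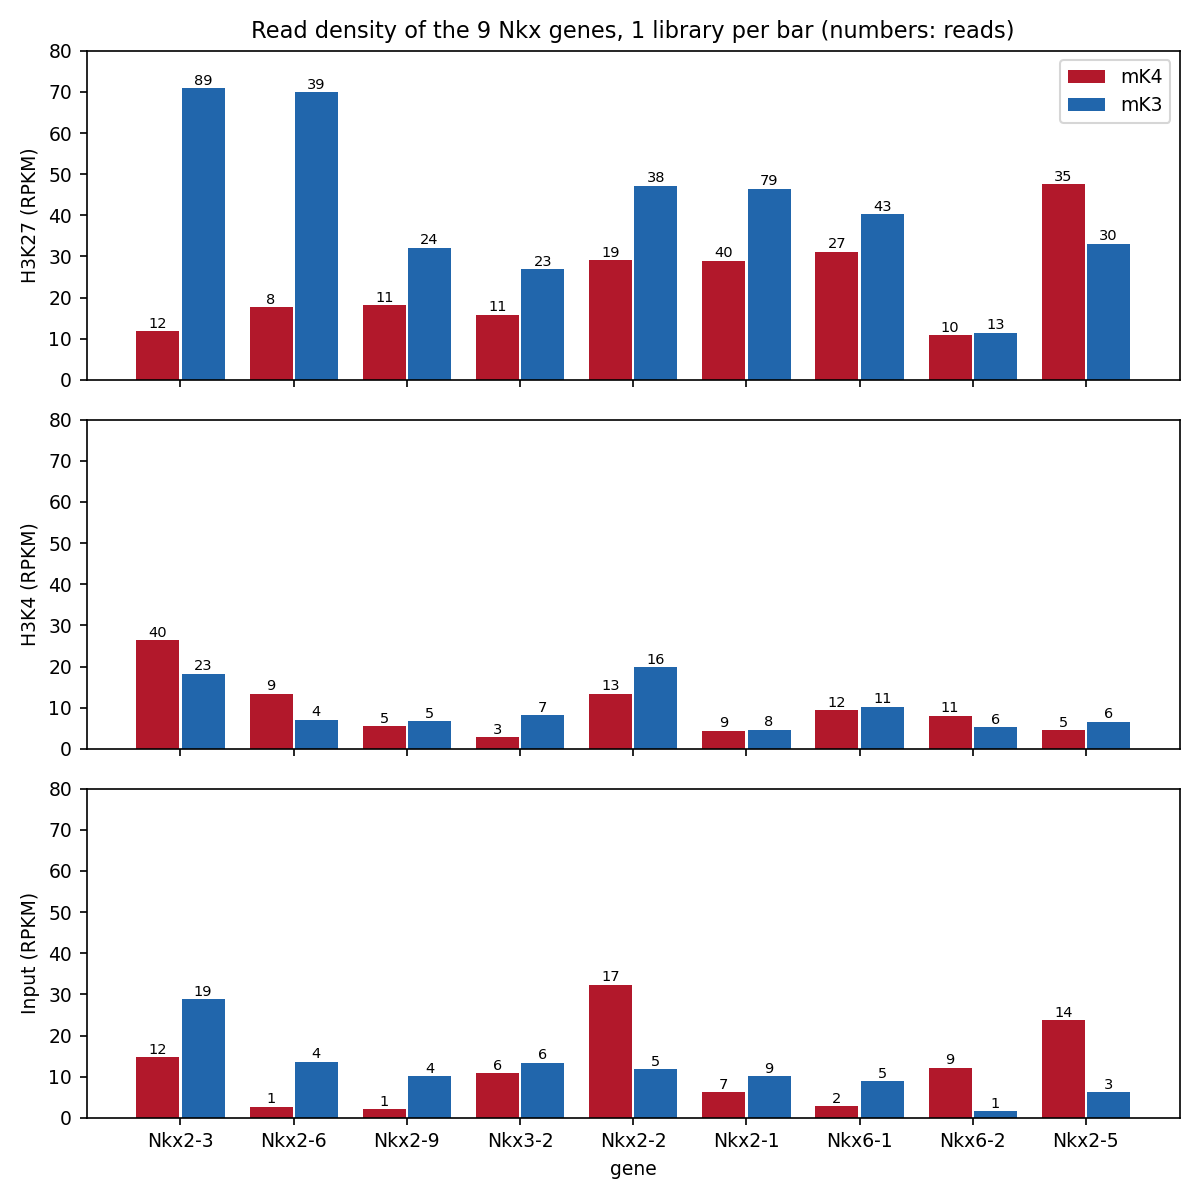
Bars give the authors' RPKM, read density per kilobase of exon at equal library size (linear axis from 0), of each gene in 1 library, mK4 left and mK3 right, for H3K27, H3K4 and input, and the numbers above the bars are the reads. H3K27 density in mK3 reached 71.0 at Nkx2-3 and 69.9 at Nkx2-6, while no H3K4 bar passed 26.5.

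Nkx2-3 is a factor of gut and spleen mesenchyme. It had 12 H3K27 reads in mK4 and 89 in mK3, a share 6.02-fold lower in mK4 (3.28 to 12.1). Its H3K27 density was 11.8 RPKM in mK4 and 71.0 RPKM in mK3, which placed it at rank 13155 and rank 47 of 21937 genes. On the log2 scale with pseudocount its difference of -2.20 was the fourth lowest of all genes. Input reads were 12 in mK4 and 19 in mK3, so H3K27 stood at 0.804-fold input in mK4 (0.33 to 1.96) and at 2.46-fold in mK3 (1.49 to 4.28). H3K4 reads were 40 in mK4 and 23 in mK3, a ratio of 1.45 (0.847 to 2.54). Nkx2-3 was the only one of the 9 with a larger share of H3K4 than of H3K27 reads in mK4, at 0.445-fold H3K27 over H3K4 (0.213 to 0.865), against 3.88-fold in mK3 (2.43 to 6.44).

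Nkx2-6, a factor of the pharyngeal endoderm and cardiac outflow region, had 8 H3K27 reads in mK4 and 39 in mK3. Its share was 3.96-fold lower in mK4 (1.82 to 9.8), and its density was 17.7 RPKM in mK4 and 69.9 RPKM in mK3. Nkx2-6 and Nkx2-3 were the 2 members called lower in mK4, of 8 members that H3K27 marked in mK4 or mK3. The call, a ratio of 0.5 or less at a gene so marked, held for 5.67% of the 3614 marked genes. No member was called higher by the mirrored rule, as were 5.4% of those genes. Nkx2-3 was marked in mK3 only, so the mK3 reads that let it pass also enter its ratio between the lines. Nkx2-6 lies on chromosome 14, whose whole input share was 0.644-fold in mK4 against mK3 (0.628 to 0.66), with 0.641 for H3K27. The gene's own ratio of 0.253 (0.102 to 0.549) lay below that of its chromosome. With the input ratio of 10 neighbouring genes on each side subtracted, the log2 difference was -2.18 at Nkx2-3 and -0.77 at Nkx2-6, so that Nkx2-3 alone of the pair stayed past 2-fold. The input at Nkx2-6 held 1 read in mK4 and 4 in mK3, and the 6.43-fold H3K27 over input in mK4 had an interval of 0.862 to 285.

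Nkx2-1, required for thyroid, lung and ventral forebrain, had 40 H3K27 reads in mK4 and 79 in mK3, beside 7 and 9 input reads. H3K27 lay 4.59-fold over input in mK4 (2.04 to 12.2) and 4.61-fold in mK3 (2.31 to 10.5). Its share between the lines was 1.6-fold lower in mK4 (1.08 to 2.41). Chromosome 12, on which it lies, had an H3K27 ratio of 0.87 between the lines, inside the gene's interval of 0.415 to 0.924. The log2 difference of Nkx2-1 was -0.62. It was -0.09 with the neighbours' input ratio subtracted and -0.15 with the gene's own input ratio subtracted. Nkx2-9, a ventral neural tube factor next to Nkx2-1 on chromosome 12, had 11 reads in mK4 and 24 in mK3, with 1 and 4 input reads, and a ratio of 0.565 (0.25 to 1.2). H3K27 at Nkx2-9 was 8.84-fold over input in mK4 (1.28 to 381) and 3.15-fold in mK3 (1.08 to 12.5).

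Nkx6-1, a factor of motor neuron progenitors and pancreatic beta cells, had 27 H3K27 reads in mK4 and 43 in mK3, and 2 and 5 input reads. It stood 10.8-fold over input in mK4 (2.73 to 94.1), rank 40 of all genes on the pseudocount scale, and 4.52-fold in mK3 (1.79 to 14.6), rank 384. The share of H3K27 reads between the lines was 0.774 (0.46 to 1.28), which counting error alone does not set apart from 1.

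In 3 members the mark was called in mK3 and not in mK4 while the input had more reads in mK4. Nkx2-5, a cardiac factor, had 35 H3K27 reads in mK4 and 30 in mK3, the only ratio above 1 in the family at 1.44 (0.858 to 2.42). Its input reads were 14 in mK4 and 3 in mK3, so H3K27 was 2.01-fold over input in mK4 (1.05 to 4.04) and 5.25-fold in mK3 (1.63 to 26.9). By density Nkx2-5 held the highest H3K27 of the 9 in mK4, at 47.7 RPKM and rank 413 of all genes, against 33.1 RPKM and rank 1180 in mK3. Nkx6-2, expressed in the neural tube and in oligodendrocytes, had 10 H3K27 reads in mK4 and 13 in mK3, with 9 and 1 input reads, and ratios over input of 0.893 (0.326 to 2.48) and 6.83 (1.02 to 290.1). Against exon length its H3K27 in mK3 was 0.71-fold, below the library's mean density. Nkx6-2 lies on chromosome 7, whose input share was 1.54-fold in mK4 against mK3.

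Nkx2-2, a factor of ventral interneurons, oligodendrocytes and beta cells, was the third such gene. It had 19 H3K27 reads in mK4 and 38 in mK3, and 17 and 5 input reads. H3K27 was 0.898-fold input in mK4 (0.442 to 1.84) and 3.99-fold in mK3 (1.57 to 13.0). Its antisense gene, Nkx2-2as, had 31 and 56 H3K27 reads but 6 and 29 input reads in mK4 and mK3, the opposite order of input. ChIP reads carry no strand of origin, so reads over bases shared by this pair cannot be told apart. With each gene's own input ratio subtracted, the log2 differences of H3K27 were -1.64 at Nkx2-2, -1.41 at Nkx2-3 and -1.40 at Nkx6-2, and -0.64 at Nkx2-6. Under that correction Nkx2-2 and Nkx6-2 passed 2-fold and Nkx2-6 did not.

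Nkx3-2, a factor of sclerotome and cartilage, had 11 H3K27 reads in mK4 and 23 in mK3 and 6 input reads in each line. Its H3K27 was 1.47-fold over input in mK4 (0.499 to 4.85) and 2.01-fold in mK3 (0.797 to 6.04). Both intervals include 1.

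Summed over the family, the H3K27 share in mK4 was 0.564 of that in mK3 (0.468 to 0.677), while the summed input had a ratio of 0.992 (0.687 to 1.44). Single H3K27 ratios were below 1 at 8 of 9, but the share of all genes below 1 was not computed. Single intervals lay below 1 at Nkx2-1, Nkx2-3 and Nkx2-6, and at 8.25% of all genes. Without Nkx2-3 the sum gave 0.687 (0.563 to 0.835), and without Nkx2-5 it gave 0.489 (0.398 to 0.597). The median log2 difference of H3K27 was -0.58 over the 9 genes and -0.06 over all genes. For input the median was -0.47 over the 9 genes and 0 over all genes. Single input ratios were below 1 at 6 of 9 and above it at Nkx2-2, Nkx2-5 and Nkx6-2. For input, too, the share of all genes below 1 was not computed. Only the input intervals of Nkx2-5 and Nkx6-2 left out 1. Divided by the neighbours' input ratios, averaged with the members' mK3 H3K27 reads as weights, the summed H3K27 ratio was 0.672. Divided by the members' own summed input ratio, it was 0.568.

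**Figure D2:**
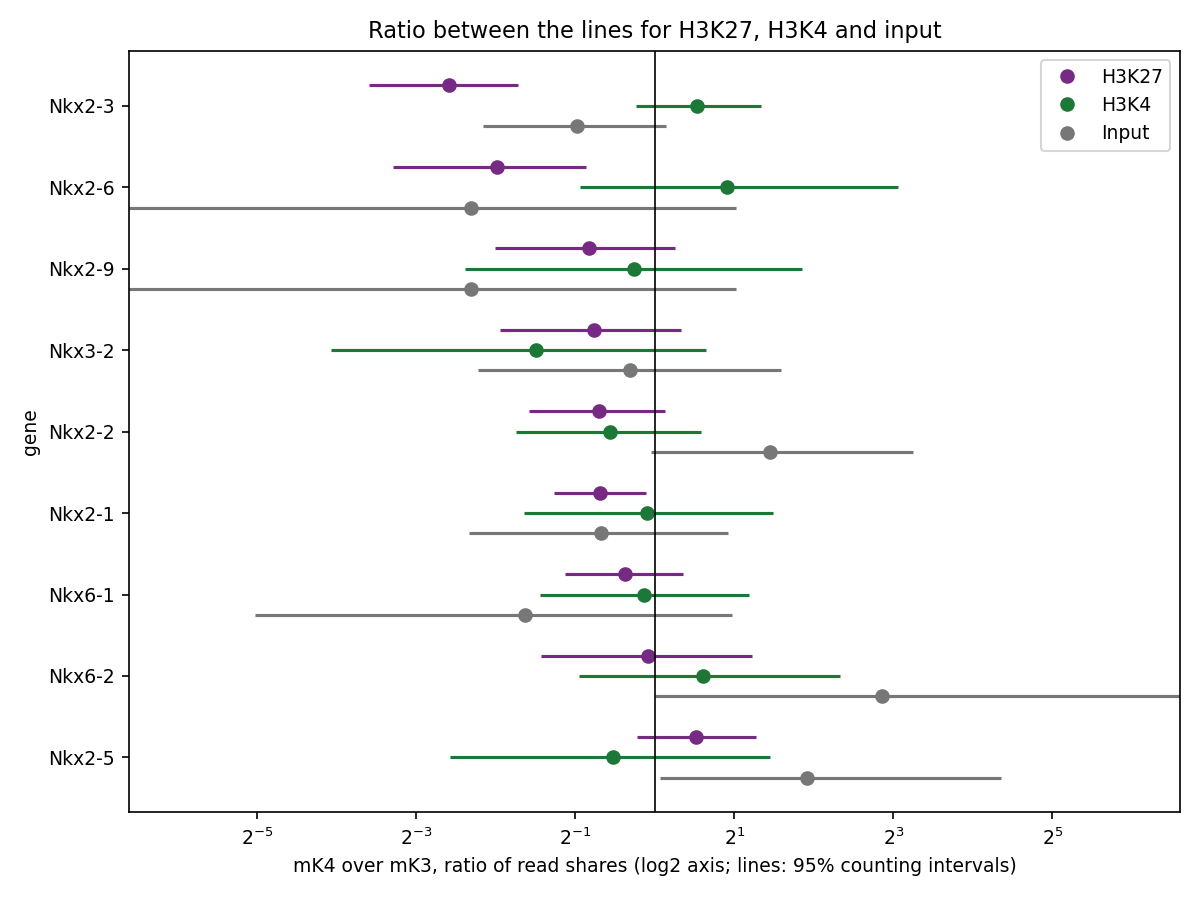
Points give the ratio of read shares, mK4 over mK3, on a log2 axis for H3K27, H3K4 and input of each gene, with 95% counting intervals cut at the edges of the plot. The H3K27 intervals of Nkx2-3 (0.0828 to 0.305) and Nkx2-5 (0.858 to 2.42) do not meet, and the input interval is the widest of the 3 at every gene except Nkx3-2.

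H3K4 marked 0 of the 9 genes in mK4, against 3.69% of all genes, and 0 in mK3, against 4.94%. Since the call between the lines needs a marked gene, no member could be called higher or lower for H3K4. The family held 107 H3K4 reads in mK4 and 86 in mK3, a ratio of 1.04 (0.774 to 1.39). Over input this was 0.84-fold in mK4 (0.615 to 1.15) and 0.803-fold in mK3 (0.567 to 1.15). At single genes H3K4 lay below input beyond counting error in mK4 at Nkx2-5, with 5 H3K4 and 14 input reads (0.193-fold, 0.0545 to 0.568), and at Nkx2-2, with 13 and 17 (0.414-fold, 0.185 to 0.905), as it did at 7% of all genes. Nkx2-1 held 9 H3K4 reads in mK4 and 8 in mK3, Nkx2-9 had 5 in each, Nkx6-1 had 12 and 11, and Nkx2-6 had 9 and 4. At Nkx3-2 there were 3 and 7, and at Nkx6-2 there were 11 and 6. With a pseudocount of 1, H3K4 passed at 2 members in mK4 and 1 in mK3. The share of all genes at that pseudocount was not computed, so these counts have no background to be read against.

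The balance within a line leaned to H3K27. Summed shares of H3K27 were 2.4-fold those of H3K4 in mK4 (1.87 to 3.08) and 4.41-fold in mK3 (3.48 to 5.64). At single genes the interval lay above 1 at 6 of 9 in mK4, against 18% of all genes, and at 8 of 9 in mK3, against 18.8%, where Nkx6-2 was the exception. The widest gaps were at Nkx2-5 in mK4, 10.4-fold (4.05 to 34.0), and at Nkx2-1 in mK3, 9.91-fold (4.79 to 23.8). This ratio does not use the input.

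**Figure D3:**
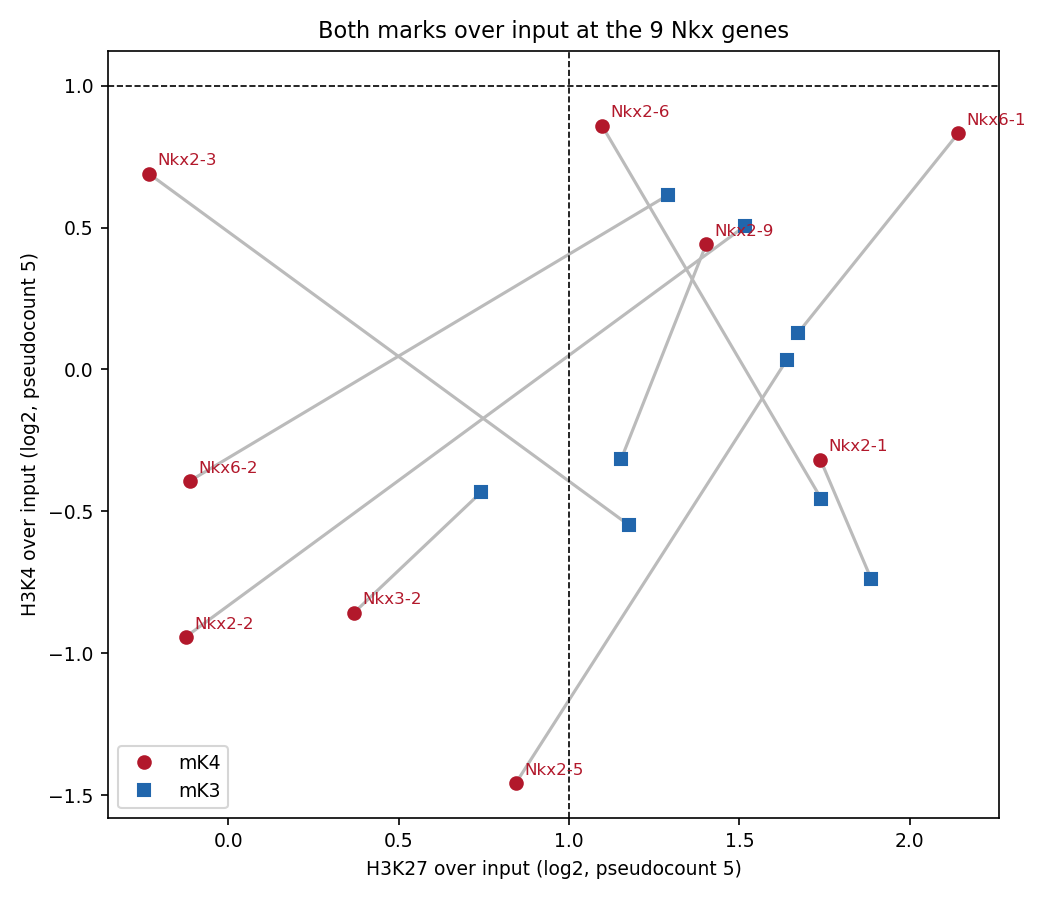
Each gene is a pair of joined points, circles for mK4 and squares for mK3, with H3K27 over input on the x axis and H3K4 over input on the y axis, both log2 with a pseudocount of 5. Dashed lines mark the 2-fold rule, which 4 circles and 8 squares pass for H3K27 and no point passes for H3K4.

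The flanking genes were read by the same rule. Taking the nearest measured gene on each side in the order of the RefSeq gene table (GRCm38.p6), and leaving out the members themselves, 16 genes remained, of which 1 was marked by H3K27 in mK4, against 9.06% of all genes, and 3 in mK3, against 10.3%. Their median log2 ratio over input was -0.16 in mK4 and -0.02 in mK3. At Nkx2-3, the neighbour Got1 had 24 H3K27 reads in mK4 and 28 in mK3, and Slc25a28 on the other side had 11 and 10. The lower H3K27 share of Nkx2-3 in mK4 was therefore not seen at the gene on either side. At Nkx2-1 and Nkx2-9, neither of which was called lower, the flanks differed by side. Pax9, a paired-box factor beside Nkx2-9, had 15 H3K27 reads in mK4 and 51 in mK3, a ratio of 0.36 (0.189 to 0.655). Slc25a21 beyond it had 9 and 56, a ratio of 0.198 (0.0861 to 0.404). Pax9 was marked in mK3 only. Slc25a21 was marked in neither line, with log2 ratios over input of -0.52 in mK4 and 0.77 in mK3. On the other side Mbip had 7 and 11 reads, a ratio of 0.784 (0.258 to 2.215), and was marked in neither line. Around Nkx2-2, Nkx2-4 had 3 and 13 reads and Pax1 had 13 and 46, whereas Foxa2, a floor plate and endoderm factor, had 35 and 43 and was marked in both lines. Beside Nkx2-6, Stc1 had 47 H3K27 reads in mK4 and 86 in mK3. Beyond Stc1, Adam28 had 24 and 73, a ratio of 0.405 (0.244 to 0.65). Adamdec1, the next gene, had 15 and 49, a ratio of 0.377 (0.1965 to 0.684), and was marked in mK3 only. Past the nearest gene on the other side, Slc25a37 had 27 and 56, a ratio of 0.594 (0.361 to 0.957). A lower H3K27 share in mK4 was thus also seen in the flanks of Nkx2-6. The flanks of Nkx2-5, Bnip1 with 5 and 2 reads and Kifc5b with 10 and 11, were not marked. Nkx3-2 lay between Rab28 (12 and 16 reads) and Bod1l (37 and 80), and Nkx6-1 between Agpat9 (22 and 38) and Cds1 (32 and 65). Nkx6-2 lay between Inpp5a (18 reads in each line) and Gpr123 (33 and 34).

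**Figure D4:**
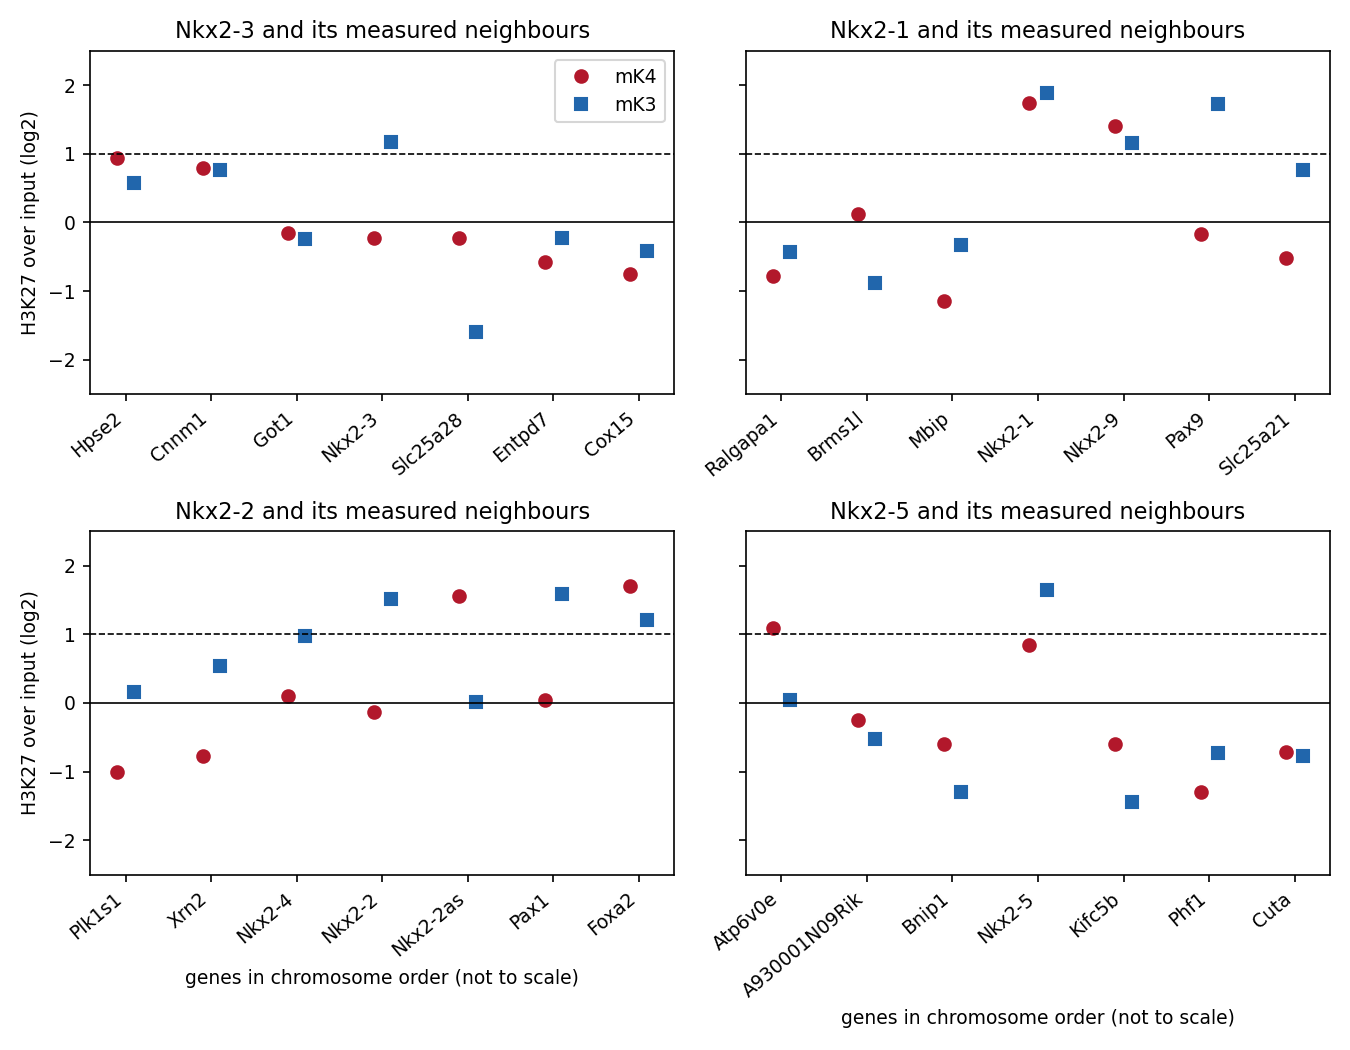
H3K27 over input (log2, pseudocount 5) of 4 members and up to 3 measured genes on each side, in chromosome order and not to scale, with circles for mK4 and squares for mK3. In its panel Nkx2-3 is the one gene past the 2-fold line in mK3, at 1.18, while Nkx2-1, Nkx2-9 and Pax9 all pass it in mK3 and Pax9 lies at -0.17 in mK4.

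Of other Nkx genes in the files, which were not among the 9, Nkx1-2 was marked by H3K27 in both lines with 27 reads in mK4 and 36 in mK3. Nkx2-4 (0.10 in mK4 and 0.97 in mK3 on the log2 scale over input) and Nkx6-3 (0.63 and 0.38) passed in neither line.

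By profile, genes were ranked on their distance to the family in 4 log2 ratios, H3K27 and H3K4 over input in each line, each from 1 library. Nearest to the median of the 9 were Tcfap2b (distance 0.0634), F10, Grin2c, Gsx1 and Myh7. Tcfap2b encodes an AP-2 factor, and it had 68 H3K27 reads in mK4 and 113 in mK3. Gsx1, a homeobox factor of the nervous system, had 33 and 65. Nearest to Nkx2-3 alone were Tnfrsf21 (0.283), Chst5 (0.296), Parm1, Cacna1g and Igf2as. Chst5, a sulfotransferase gene, had 6 H3K27 reads in mK4 and 63 in mK3, and Cacna1g, a calcium channel gene, had 29 and 137.

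Related homeobox genes, genes of tissues or pathways in which Nkx factors act, and housekeeping genes were counted by the same rule. The lists were chosen with earlier results known. Over all genes, H3K27 marked 9.06% in mK4, 10.3% in mK3 and 2.85% in both lines. Of the 3614 genes marked in mK4 or mK3, 5.67% were called lower in mK4 and 5.4% higher. Of 25 homeobox genes of the NKL class outside the Nkx genes, H3K27 marked 15 in mK4 and 14 in mK3, with 11 in both. By the sum of the log2 ratios over input in the lines, the highest of these 11 were Tlx1, Lbx1, Vax1 and Bsx. Tlx1, a spleen factor, had 35 reads in mK4 and 64 in mK3. The list's median difference between the lines was 0.04 on the log2 scale, beside -0.58 for the 9 Nkx genes, and 0 members were called lower and 1, Lbx2, higher. The difference between these medians was not tested. Among 27 genes of the ventral neural tube and the Shh pathway, 12 were marked in mK4 and 14 in mK3. Mnx1, Evx1 and Lhx4 were among those marked in both lines, and Shh and Sim1 were called lower in mK4. For 18 pancreatic endocrine genes the counts were 7 in each line, with Neurog3, Insm1, Mafa and Rfx6 marked in both and Pdx1 and Neurod1 called lower in mK4. Of 13 sclerotome and cartilage genes, 1 was marked in mK4, Acan, and 6 in mK3. Pax1 and Pax9, which lie near Nkx2-2 and Nkx2-9, were the ones called lower.

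Of 16 lung and thyroid genes, 4 were marked by H3K27 in mK4 and 2 in mK3, against 9.06% and 10.3% of all genes. The same shares apply to the lists that follow. Sox2 was marked in both lines, Foxa1 was called lower in mK4 and the iodide transporter gene Slc5a5 was called higher. Of 16 cardiac genes, 3 were marked in each line, with Hand2 in both and Tnni3 called higher. For 10 gut and spleen mesenchyme genes the count was 3 in each line, and for 10 oligodendrocyte genes it was 3 in mK4 and 4 in mK3, with Olig1 and Olig2 in both and Mag called higher. None of 6 Groucho corepressor genes, whose products Nkx2-2 and Nkx6-1 recruit, was marked in either line. Housekeeping genes passed for H3K27 at 0 of 27 in mK4 and 1 of 27 in mK3.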

How the data were processed

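Each of 6 deposited files lists 22088 gene rows with an exon length, whole read counts and an RPKM value. Per the file headers, the counts are reads per gene from an alignment file, and the authors' RPKM divides them by exon length and the library's counted reads. Recomputing it from counts, lengths and column totals gave the deposited RPKM values to rounding. Exon length in base pairs is a further deposited column, other than the 2 measures. Per the submitters' processing notes, reads were placed on mm9. The aligner is not given in the sources used here, nor are read length and duplicate handling.

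Groups came from the sample titles, 1 library each. For 137 symbols with several rows the row with the highest mean ChIP share was kept. Counts were scaled to a total of 513622, and log2 ratios used a pseudocount of 5, which understates differences of genes with few reads. Folds in the text compare read shares with no pseudocount and carry exact Clopper-Pearson 95% intervals. Calls needed a 2-fold ratio on the pseudocount scale. Neighbours were ordered by the RefSeq table (19324 genes matched by symbol, 2302 by synonym, 311 unmatched). Python 3.11.15, pandas 2.3.3 and SciPy 1.17.1 were used. The code was tested on simulated data.

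The members and the 10 context lists were chosen with earlier results of these data known. Named genes were the members, other Nkx genes, the nearest neighbours, the 5 genes nearest in profile with a mean scaled ChIP count of 20 or more (clone-named and small RNA genes left out), and up to 4 genes per list marked by H3K27 in both lines. Genes called lower or higher, and neighbours beyond the nearest, were named after their values were seen. Some genes that these rules name are not reported here. Alternatives were 2 further pseudocounts, upper-quartile scaling, other backgrounds, a 3-fold rule, and subtraction of neighbour or own input.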

Additional observations from a re-analysis of the deposited data

Results flagged for a closer look

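At several members a mark lay over its input in one line and under it in the other, with 1 library a line, and none of these differences was tested. The difference of the log2 ratios over input, mK4 minus mK3, is given with both ratios. For H3K27 it was -1.64 at Nkx2-2 (-0.13 in mK4 and 1.52 in mK3), -1.41 at Nkx2-3 (-0.23 and 1.18) and -1.40 at Nkx6-2 (-0.11 and 1.29). For H3K4 it was -1.45 at Nkx2-2 (-0.94 and 0.51), 1.24 at Nkx2-3 (0.69 and -0.55), -1.49 at Nkx2-5 (-1.46 and 0.03), 1.32 at Nkx2-6 (0.86 and -0.46), 0.76 at Nkx2-9 (0.44 and -0.32) and -1.01 at Nkx6-2 (-0.39 and 0.61). At Nkx2-2 and Nkx6-2 both marks share the sign of their difference, and their inputs had 17 and 9 reads in mK4 against 5 and 1 in mK3. Of the genes listed for both marks, Nkx2-3 alone has opposite signs, and both marks are scored against the same input there too.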

How the results depend on the processing

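The number of members marked by H3K27 was 4 in mK4 and 8 in mK3. With a pseudocount of 20 it was 2 in mK4 and 3 in mK3, with exon length as background 1 and 5, with both inputs pooled 3 and 5, and with a 3-fold rule 2 and 4. Among these alternatives a share of all genes was computed for exon length only, 3.51% in mK4 and 2.38% in mK3. The other alternative counts in this section therefore cannot be set against all genes. The 2 members with lower H3K27 in mK4 became 0 with a pseudocount of 20 or a 3-fold rule and 1 with neighbour input subtracted. With each member's own input ratio subtracted the count was 3, made up of Nkx2-2, Nkx2-3 and Nkx6-2, without Nkx2-6. Nkx2-3 kept a log2 difference of -1.57 with a pseudocount of 20 and of -2.20 under the 3-fold rule, and left the count because its H3K27 over input in mK3 (0.92 and 1.18) missed the rule for a marked gene. Nkx2-6 stayed marked in mK3 and left because its difference (-0.91 and -1.52) fell short. Members marked by H3K4 were 2 in mK4 and 1 in mK3 with a pseudocount of 1. Without Nkx2-3 the summed H3K27 ratio between the lines was 0.687, and the median of the 9 single input ratios was 0.626 in place of 0.992. Nkx6-2 in mK3 had a log2 H3K27 ratio of -0.36 over exon length, against 1.29 over input. Of 180 values of single members under these alternatives, 166 stayed inside their counting interval and 14 moved outside it. The sign changed in 16 of the 180, of which 12 stayed inside the interval, and Nkx6-2 over exon length was the only one among values of 2-fold or more. The sum without Nkx2-5, added after the data were seen, was 0.489. No paired analysis was possible because each group has 1 library, and for the same reason no library could be left out. Input reads of 1 to 19 per gene limit every ratio over input.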
